A study of Mus musculus with 8 samples.

Results

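The dual-specificity MAP kinase phosphatases were followed by their 10 genes, Dusp1, Dusp2, Dusp4, Dusp5, Dusp6, Dusp7, Dusp8, Dusp9, Dusp10 and Dusp16. They were taken by symbol from a table of 24918 entries, in which each of the 10 had a single entry. RNA had been sequenced from whole corneas of male mice aged 3 months on a C57BL/6J/FVB background. The 4 corneaGRKO libraries came from mice of genotype GRloxP/loxP-PAX6Cre/+, in which Cre under the P0 promoter of Pax6 deletes the floxed glucocorticoid receptor gene in the corneal epithelium. The 4 GRflox libraries came from littermates of genotype GRloxP/loxP-PAX6+/+, which carried the same floxed alleles without Cre, so presence of Cre and loss of the receptor cannot be told apart. Libraries of both groups were numbered 1, 3, 4 and 5, and each was a pool of 4 to 6 corneas. The comparison asks how the receptor's loss changes these genes, one of which, Dusp1, is a known glucocorticoid-induced gene.

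MAP kinase phosphatases remove phosphate from both the threonine and the tyrosine of the activation loop of MAP kinases, and so switch off ERK, JNK and p38. Members differ in which kinase they bind and in where they sit in the cell. Dusp1, Dusp2, Dusp4 and Dusp5 encode nuclear enzymes whose genes are induced by growth factors and stress. Dusp6, Dusp7 and Dusp9 encode cytoplasmic enzymes directed mainly at ERK, and Dusp8, Dusp10 and Dusp16 encode enzymes directed mainly at JNK and p38. Glucocorticoids limit inflammatory MAP kinase signalling in part by inducing Dusp1.

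The promoters of Dusp1 and Dusp8, the pair of genes with the largest differences between the groups, and that of Dusp5, a growth factor-induced member, are shown for the response elements they hold. Each runs from 250 bases before to 50 bases after the transcription start, 5′ to 3′ on the gene's strand, as given by RefSeq for GRCm38.p6. Dusp1 lies on the minus strand at chr17:26508423-26508722, Dusp8 on the minus strand at chr7:142095235-142095534 and Dusp5 on the plus strand at chr19:53528895-53529194. Capitals mark the cAMP response element TGACGTCA in Dusp1 and Dusp8 and a pair of adjoining CArG boxes, the binding sequence of serum response factor, in Dusp5.
Dusp1: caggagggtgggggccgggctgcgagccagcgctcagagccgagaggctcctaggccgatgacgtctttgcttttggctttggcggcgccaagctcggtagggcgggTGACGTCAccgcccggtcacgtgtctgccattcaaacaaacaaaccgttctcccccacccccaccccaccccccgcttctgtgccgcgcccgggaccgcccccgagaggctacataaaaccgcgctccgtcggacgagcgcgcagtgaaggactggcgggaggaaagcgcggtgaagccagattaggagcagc
Dusp8: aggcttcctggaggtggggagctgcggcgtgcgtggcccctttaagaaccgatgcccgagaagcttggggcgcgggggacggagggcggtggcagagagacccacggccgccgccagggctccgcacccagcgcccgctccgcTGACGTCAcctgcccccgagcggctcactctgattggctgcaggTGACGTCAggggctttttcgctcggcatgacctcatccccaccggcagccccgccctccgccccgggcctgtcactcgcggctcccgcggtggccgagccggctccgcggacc
Dusp5: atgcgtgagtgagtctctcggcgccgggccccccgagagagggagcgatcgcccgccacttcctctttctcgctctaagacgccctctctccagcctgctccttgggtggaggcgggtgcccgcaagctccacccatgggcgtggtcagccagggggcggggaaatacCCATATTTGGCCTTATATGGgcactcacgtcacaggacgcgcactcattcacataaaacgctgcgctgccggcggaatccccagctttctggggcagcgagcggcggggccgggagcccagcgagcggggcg

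Promoter entries were matched for 8 of the 10 genes, all but Dusp4 and Dusp9, and both strands were searched. TGACGTCA, which reads the same on both strands, occurred in 2 of the 8, once in Dusp1 (starting 143 bases before the start site) and at 2 places in Dusp8 (107 and 63 bases before it), against 1.79% of all 32851 promoters. The CArG box occurred in Dusp5 alone among the 8 (82 and 72 bases before the start site, without overlap), against 1.63% of all promoters. The palindromic glucocorticoid response element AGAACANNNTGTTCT occurred in 0 of the 8 windows and in 0.00913% of all promoters. At so low a share, 0 of 8 says nothing particular about the family. These motif results are matches of letters in short windows, and binding was not measured. Dusp1 and Dusp8 were picked for display by their group differences, neither of which passed the test below. A link between the motif and those differences was not tested.

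Transcripts of the ERK phosphatase genes Dusp7, Dusp6 and Dusp5 were the most abundant of the family in both groups. On the deposited log2 scale less the log2 of exon length in kilobases, Dusp7 averaged 9.86 in corneaGRKO and 9.95 in GRflox corneas, and Dusp6 averaged 9.52 in corneaGRKO and 9.63 in GRflox corneas. Dusp5 followed at 9.51 in corneaGRKO and 9.46 in GRflox corneas. Dusp1 averaged 9.15 in corneaGRKO and 8.86 in GRflox corneas, and Dusp16 averaged 8.61 in corneaGRKO and 8.44 in GRflox corneas. Dusp10 had a level of 6.09 in corneaGRKO and 6.00 in GRflox corneas. The 4 weakest were Dusp8 (4.16 in corneaGRKO, 3.90 in GRflox), Dusp4 (4.13 in corneaGRKO, 4.14 in GRflox), Dusp2 (3.64 in corneaGRKO, 3.63 in GRflox) and Dusp9 (1.99 in corneaGRKO, 1.97 in GRflox). The order was the same in both groups except that Dusp8 and Dusp4 changed places. Neighbours in this order lay further apart than the larger of their SDs, apart from Dusp6 and Dusp5, and Dusp8 and Dusp4, both in corneaGRKO. The table appears to compress low values, so levels of the weak genes are approximate.

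The receptor gene Nr3c1 was lower in every corneaGRKO library, at 10.61, 10.78, 10.83 and 10.78, against 11.07, 11.21, 11.28 and 11.34 in GRflox. The group difference, here and below corneaGRKO minus GRflox on the log2 scale, was -0.47 (SE 0.064, limma adjusted p = 0.00767). Krt12, the keratin of the corneal epithelium, had values up to 20.15 in corneaGRKO and up to 20.20 in GRflox libraries (difference -0.18, limma adjusted p = 0.545), and Kera, the stromal keratocan gene, between 14.29 and 14.48 in corneaGRKO and between 14.58 and 14.77 in GRflox (-0.29, limma adjusted p = 0.0369), so that epithelium and stroma were both represented. In whole cornea, fewer cells of a type and less RNA per cell cannot be told apart.

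No MAP kinase phosphatase gene passed the test between corneaGRKO and GRflox. The test was limma over the 13269 entries whose mean over all libraries reached 5, with a Benjamini-Hochberg adjusted p of 0.05 as the threshold, and 8 of the 10 genes entered it. Dusp2 and Dusp9 fell under that mean and are given as values. The count was 0 of 8, against 1.85% of all entries tested (1.33% higher in corneaGRKO). At an unadjusted p of 0.05 it was 2 of 8 (Dusp1 and Dusp16, both higher), against 16.5% of all entries (9.69% higher in corneaGRKO). With library weights, which were estimated from the same libraries, 2 of 8 passed (Dusp16 higher and Dusp6 lower), against 14.9% of all entries. The groups overlapped in all 8 tested genes, and also in Dusp2 and Dusp9. Of all tested entries 10.5% had groups that did not overlap, a share at which 0 of 8 says nothing particular about the family. The median difference of the 8 tested genes was 0.07, and that of all tested entries -0.0087.

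**Figure D1:**
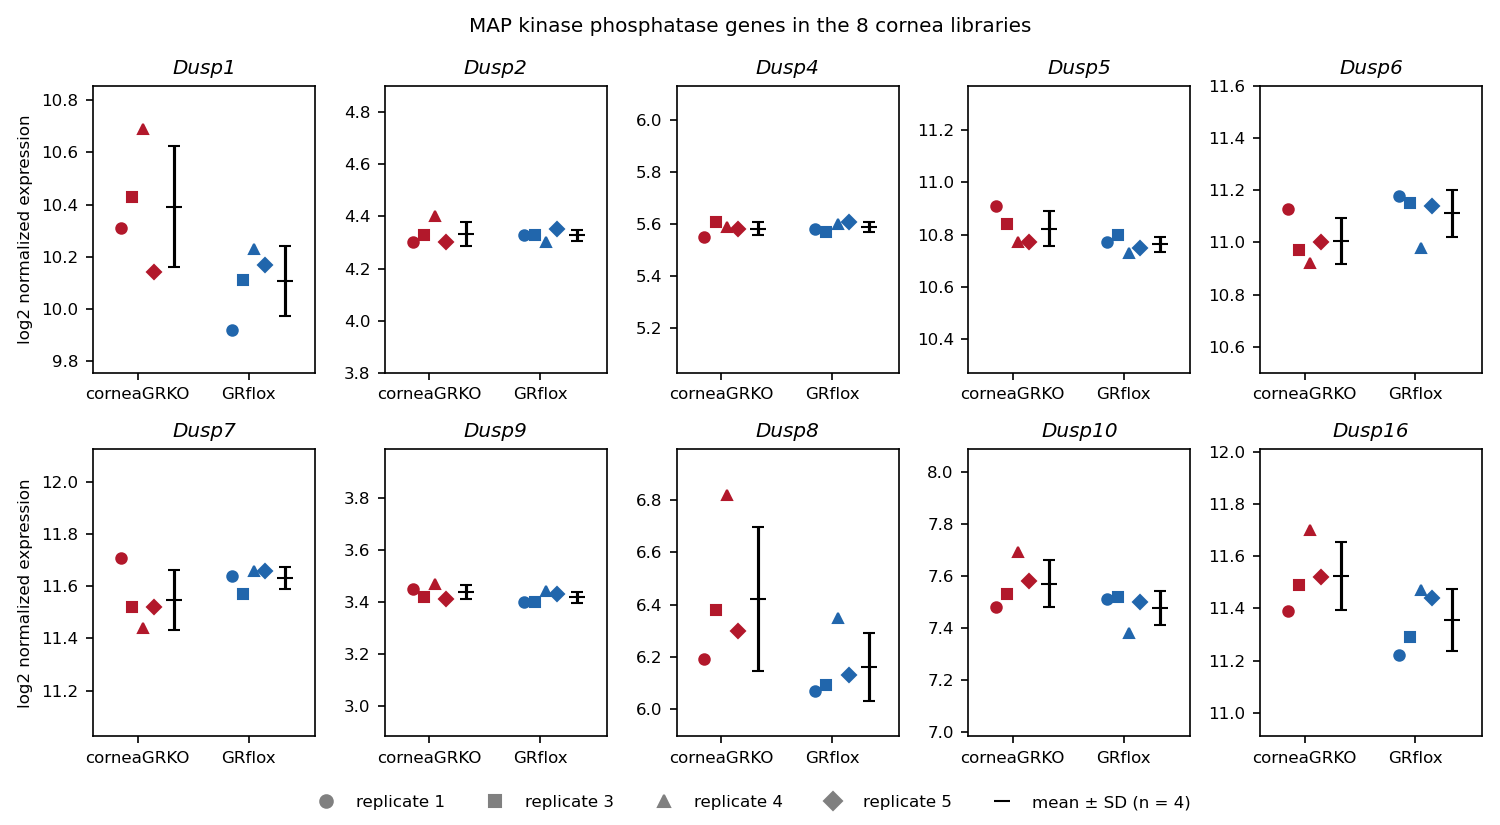
Log2 normalized expression of the 10 phosphatase genes in each library, corneaGRKO (red) left of GRflox (blue), with a marker shape for each replicate number and the mean ± SD of 4 libraries in black. All panels span the same number of log2 units. Dusp1, Dusp8 and Dusp16 spread most, each highest in corneaGRKO replicate 4 (10.69, 6.82 and 11.70), and the groups overlap in every panel.

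Dusp1, the glucocorticoid-induced member, was not lower in corneaGRKO than in GRflox corneas. Its log2 values were 10.31, 10.43, 10.69 and 10.14 in corneaGRKO replicates 1, 3, 4 and 5, against 9.92, 10.11, 10.23 and 10.17 in the same-numbered GRflox replicates. All 4 corneaGRKO libraries lay above the GRflox mean, and 3 of the 4 above the highest GRflox library. The mean was 10.39 ± 0.23 in corneaGRKO and 10.11 ± 0.135 in GRflox (SD, n = 4 each). The difference of 0.29 (SE 0.106) had a 95% interval of 0.05 to 0.52, not adjusted for the number of genes, and did not pass (limma adjusted p = 0.207). Without corneaGRKO replicate 4, the highest library, it was 0.19 with an interval from 0.00 to 0.37 (limma adjusted p = 0.403).

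Of the other glucocorticoid-induced genes, Tsc22d3, which encodes the anti-inflammatory leucine zipper protein GILZ, fell by 0.47 (limma adjusted p = 0.0217), the only one of 10 tested glucocorticoid-induced genes past the threshold. Its call was lost without corneaGRKO replicate 3 (0.078) or 5 (0.0611), or without GRflox replicate 1 (0.0731) or 5 (0.0835), each a limma adjusted p. Per1, a clock gene, stood at -0.43 (limma adjusted p = 0.0515) and Fkbp5, a receptor chaperone gene, at -0.39 (0.105). The other 7 genes of the list were Klf9, Sgk1, Zfp36, Zbtb16, Nfkbia, Cebpd and Ddit4, and the list's differences ran from -0.47 to 0.13 with a median of -0.06. At an unadjusted p of 0.05, 4 of the 10 were lower, against 6.86% of all entries tested, and 0 higher, against 9.69%. These 4 were Tsc22d3, Per1, Fkbp5 and Nfkbia (-0.18, limma adjusted p = 0.166).

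The 3 genes with the largest falls had the following values beside those of Dusp1. Tsc22d3 had values of 10.71, 10.61, 11.00 and 10.65 in corneaGRKO, against 11.23, 11.10, 11.20 and 11.33 in GRflox libraries, with no overlap. Per1 had values of 10.20, 10.14, 10.38 and 10.22 in corneaGRKO, against 10.50, 10.50, 10.71 and 10.94 in GRflox libraries, also with no overlap. Fkbp5 had values of 9.30, 9.45, 9.67 and 9.50 in corneaGRKO, against 9.90, 9.80, 10.15 and 9.62 in GRflox libraries, and overlapped through 1 library of each group. The difference between these genes and Dusp1 was not tested, since the 3 were picked with their lower values known.

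**Figure D2:**
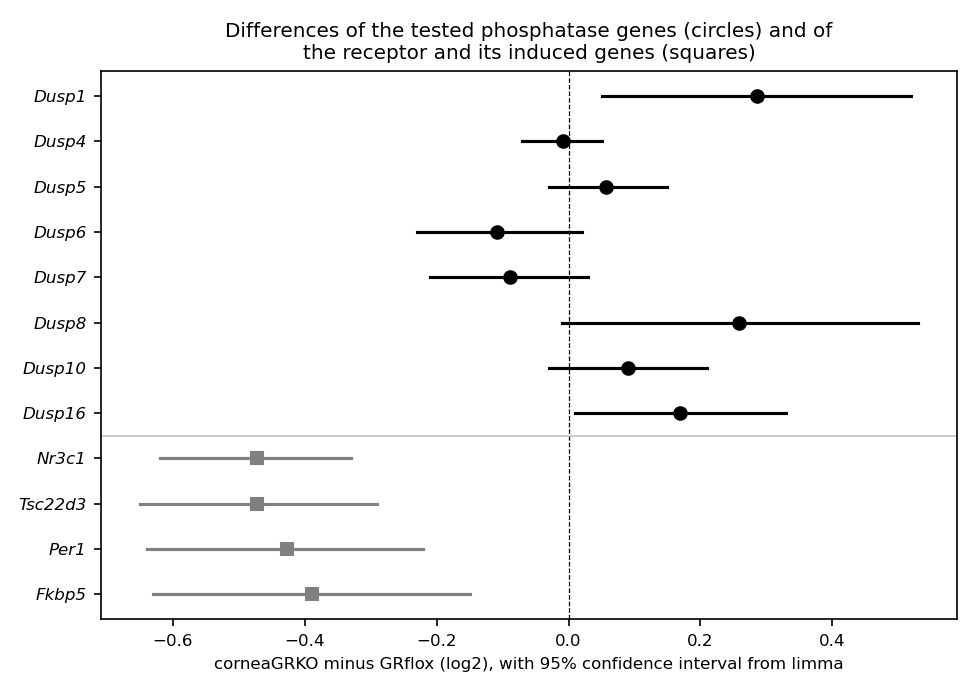
Differences between corneaGRKO and GRflox on the log2 scale with 95% intervals from limma, for the 8 tested phosphatase genes (circles) and for Nr3c1, Tsc22d3, Per1 and Fkbp5 (squares). The intervals of Dusp1 (0.05 to 0.52) and Dusp16 (0.01 to 0.33) lie above 0 before adjustment over genes, and those of the 4 comparison genes lie below it.

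Among the other inducible nuclear phosphatases, Dusp5, which is specific for ERK and holds it in the nucleus, stayed within a narrow range. It had values of 10.91, 10.84, 10.77 and 10.77 in corneaGRKO, against 10.77, 10.80, 10.73 and 10.75 in GRflox libraries. The first 2 corneaGRKO libraries lay above all GRflox libraries and the other 2 among them. The difference was 0.06 (SE 0.0407, 95% interval -0.03 to 0.15, limma adjusted p = 0.499), and 0.03 without corneaGRKO replicate 1. Dusp4, a nuclear phosphatase of ERK, JNK and p38, had values of 5.55, 5.61, 5.59 and 5.58 in corneaGRKO, against 5.58, 5.57, 5.60 and 5.61 in GRflox libraries. Its difference was -0.01 with a 95% interval of -0.07 to 0.05 (limma adjusted p = 0.889). Its 2 sets of values covered almost the same range.

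Dusp2 encodes a phosphatase best known from activated lymphocytes and other immune cells. Its values were 4.30, 4.33, 4.40 and 4.30 in corneaGRKO, against 4.33, 4.33, 4.30 and 4.35 in GRflox libraries. The group means differed by 0.00, less than either SD (0.0449 in corneaGRKO, 0.023 in GRflox). Of 10 lymphocyte markers, 9 were in the table and 0 reached the mean needed for the test. Their summed linear level was 25.9 to 27.1 in corneaGRKO and 25.2 to 25.7 in GRflox libraries, with Cd3e between 1.46 and 1.53 in corneaGRKO and between 1.45 and 1.46 in GRflox on the log2 scale.

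The cytoplasmic ERK phosphatases Dusp6 and Dusp7 had the only mean differences below -0.05 in the family. Dusp6, a feedback inhibitor that ERK signalling itself induces, had values of 11.13, 10.97, 10.92 and 11.00 in corneaGRKO, against 11.18, 11.15, 10.98 and 11.14 in GRflox libraries. GRflox replicate 4 lay within the corneaGRKO range, and the other 3 GRflox libraries above all 4 corneaGRKO libraries. The difference was -0.11 (SE 0.0562, 95% interval -0.23 to 0.02, limma adjusted p = 0.361). Dusp7 had values of 11.71, 11.52, 11.44 and 11.52 in corneaGRKO, against 11.64, 11.57, 11.66 and 11.66 in GRflox libraries. Replicate 1 of corneaGRKO was the highest of all 8 libraries and the other 3 were the lowest. The difference was -0.09 (SE 0.0543, limma adjusted p = 0.442), with -0.14 when corneaGRKO replicate 1 was left out (limma adjusted p = 0.0826) and -0.05 when replicate 4 was (0.778).

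Dusp9, an X-linked ERK phosphatase known mainly from placenta, was the weakest of the family. It had values of 3.45, 3.42, 3.47 and 3.41 in corneaGRKO, against 3.40, 3.40, 3.44 and 3.43 in GRflox libraries. The means differed by 0.02, less than either SD (0.0248 in corneaGRKO, 0.0225 in GRflox).

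All 3 phosphatases directed at JNK and p38 had higher means in corneaGRKO, and 0 of the 3 passed the test on group alone. Dusp8, known mainly from brain and heart, had values of 6.19, 6.38, 6.82 and 6.30 in corneaGRKO, against 6.07, 6.09, 6.35 and 6.13 in GRflox libraries. Replicate 4 was the highest library in both groups. The difference was 0.26 (SE 0.12, 95% interval -0.01 to 0.53, limma adjusted p = 0.315), and it was 0.13 without corneaGRKO replicate 4 (limma adjusted p = 0.55). Dusp16, a JNK phosphatase, had values of 11.39, 11.49, 11.70 and 11.52 in corneaGRKO, against 11.22, 11.29, 11.47 and 11.44 in GRflox libraries. Of the corneaGRKO libraries, 3 lay above all GRflox libraries, and replicate 4 was again highest in both groups. The difference was 0.17 (SE 0.0739, 95% interval 0.01 to 0.33, limma adjusted p = 0.287), and 0.11 without corneaGRKO replicate 4 (limma adjusted p = 0.583).

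Dusp10, a phosphatase of JNK and p38 that limits innate immune signalling, had values of 7.48, 7.53, 7.69 and 7.58 in corneaGRKO, against 7.51, 7.52, 7.38 and 7.50 in GRflox libraries. Only the first corneaGRKO library lay within the GRflox range. The difference was 0.09 (SE 0.0532, 95% interval -0.03 to 0.21, limma adjusted p = 0.424). It was 0.05 without corneaGRKO replicate 4 and 0.06 without GRflox replicate 4 (limma adjusted p = 0.768 and 0.495).

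Several members shared their extreme library. Replicate 4 of corneaGRKO held the highest value of 6 genes, Dusp1, Dusp2, Dusp8, Dusp9, Dusp10 and Dusp16, and the lowest value of Dusp6 and Dusp7. In that library Dusp8 stood 0.66, Dusp1 0.58 and Dusp16 0.34 above their GRflox means, and Dusp6 and Dusp7 stood at -0.19 and -0.20. GRflox replicate 1 held the lowest values of Dusp1, Dusp8 and Dusp16. GRflox replicate 4 had the highest GRflox values of these 3 genes and the lowest of Dusp6, at deviations of 0.12, 0.19, 0.12 and -0.13. Other genes did not follow: Dusp2 and Dusp10 had their lowest values of all 8 libraries there (-0.03 and -0.10), and Dusp7 stood at 0.03.

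Markers of neighbouring tissue and of macrophages had their highest sums in the same library, corneaGRKO replicate 4. The summed linear level of 10 photoreceptor and retina markers ran from 418 to 1390 in corneaGRKO and from 392 to 408 in GRflox libraries, and its 5 tested genes averaged 0.57, 0.16, 1.63 and 0.07 above GRflox in replicates 1, 3, 4 and 5 of corneaGRKO. The 6 pigment cell markers summed to 1780 to 2270 in corneaGRKO and 1530 to 1670 in GRflox, the 8 conjunctival and goblet cell markers to 58400 to 98300 in corneaGRKO and 40000 to 51400 in GRflox, and the 9 of 10 macrophage markers in the table to 11500 to 14200 in corneaGRKO and 11000 to 12800 in GRflox. The 9 muscle markers, 1 of them tested and not past the threshold, summed to 336 to 406 in corneaGRKO and 306 to 346 in GRflox. Of the other lists, 0 of 5 tested retina, 1 of 4 pigment, 3 of 6 conjunctival and 4 of 9 macrophage markers rose past the threshold, against 1.33% of all entries tested, and 0 markers of the 4 lists were at 0 in every library. The 3 conjunctival markers past it were the keratins Krt8, Krt13 and Krt19. Among goblet cell markers, Agr2 differed by 0.02 (limma adjusted p = 0.784), and Muc5ac and Tff1 lay under the mean needed for the test. In GRflox replicate 4 the retina list stood at -0.01 and the pigment list at 0.04, while the summed pigment (1670), muscle (346) and macrophage (12800) levels were the highest among GRflox libraries. The summed conjunctival and goblet cell level (40000) was the lowest of all 8 libraries there. Of the macrophage markers, Itgam, the strongest, stood at 13.35 there, while Lyz2 (9.02) and Cd68 (8.82) had their lowest values of all 8 libraries. The mean of the tested macrophage markers stood at 0.04 in both GRflox replicate 3 and GRflox replicate 4. The tested muscle gene was highest in replicate 4 of both groups, at 0.43 in corneaGRKO and 0.15 in GRflox. Of 10 stromal markers, 3 (Kera, Col5a1 and Col6a2) fell past the threshold, against 0.52% of all entries, and 0 rose. Stromal differences ran from -0.33 to 0.38, with 6 negative and 4 positive, the highest that of Ptgds (limma adjusted p = 0.185). The stromal sum ran from 356000 to 419000 in corneaGRKO and from 386000 to 413000 in GRflox. It was highest in corneaGRKO replicate 4. Of 10 corneal epithelium markers 0 passed, with differences from -0.23 to 0.77, the highest that of Krt15, a basal keratin (limma adjusted p = 0.0829). Their sum ran from 2110000 to 2800000 in corneaGRKO and from 2470000 to 2900000 in GRflox, and was lowest in corneaGRKO replicate 4. In that library Krt12 (19.57), Aldh3a1 (18.61) and Tkt (17.22) were lowest of all 8 libraries, while Krt14 (14.73) and Krt15 (16.72) were highest. The part of these markers in the phosphatase differences was not tested.

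**Figure D3:**
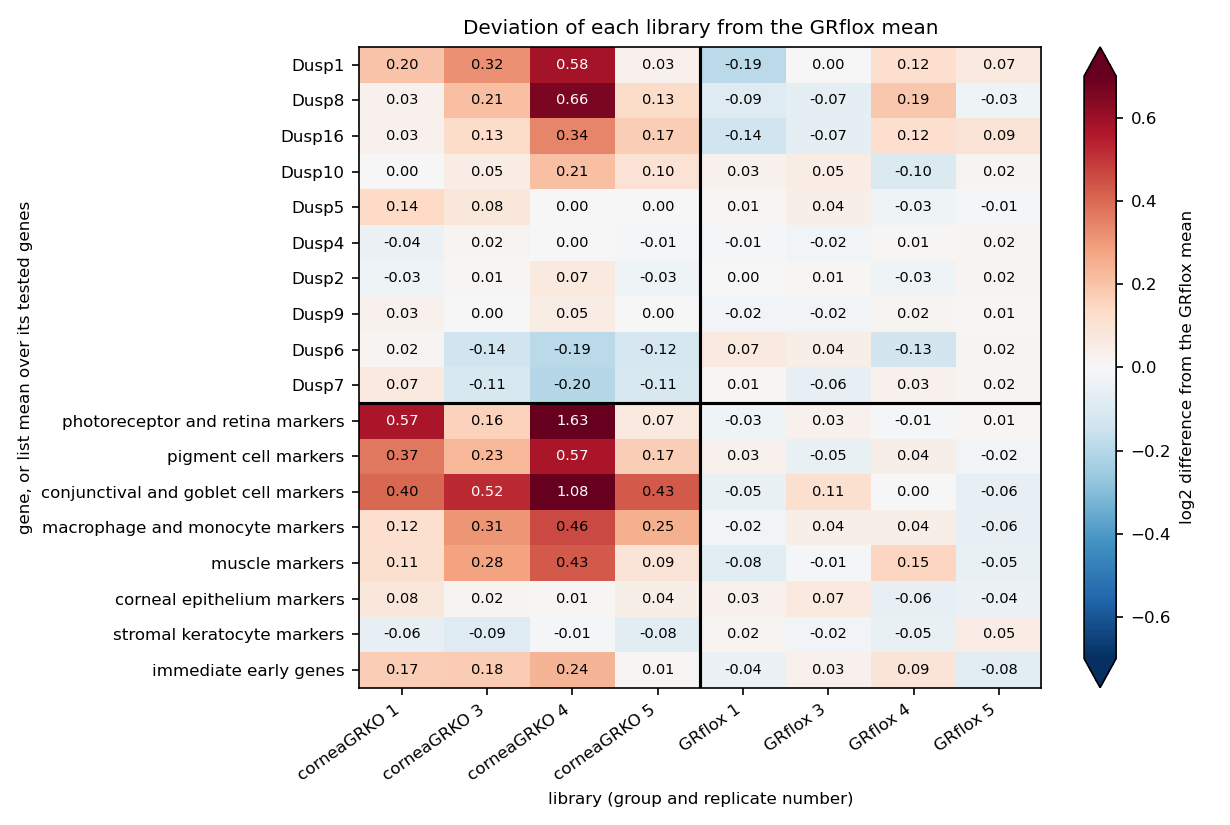
Deviation of each library from the GRflox mean on the log2 scale, corneaGRKO left of GRflox, for the 10 phosphatase genes (upper rows) and for the mean of the tested genes of 8 lists (lower rows). Colours stop at 0.7, and each cell prints its value. The column of corneaGRKO replicate 4 holds the largest deviations of Dusp1 (0.58), Dusp8 (0.66) and the retina list (1.63).

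**Figure D4:**
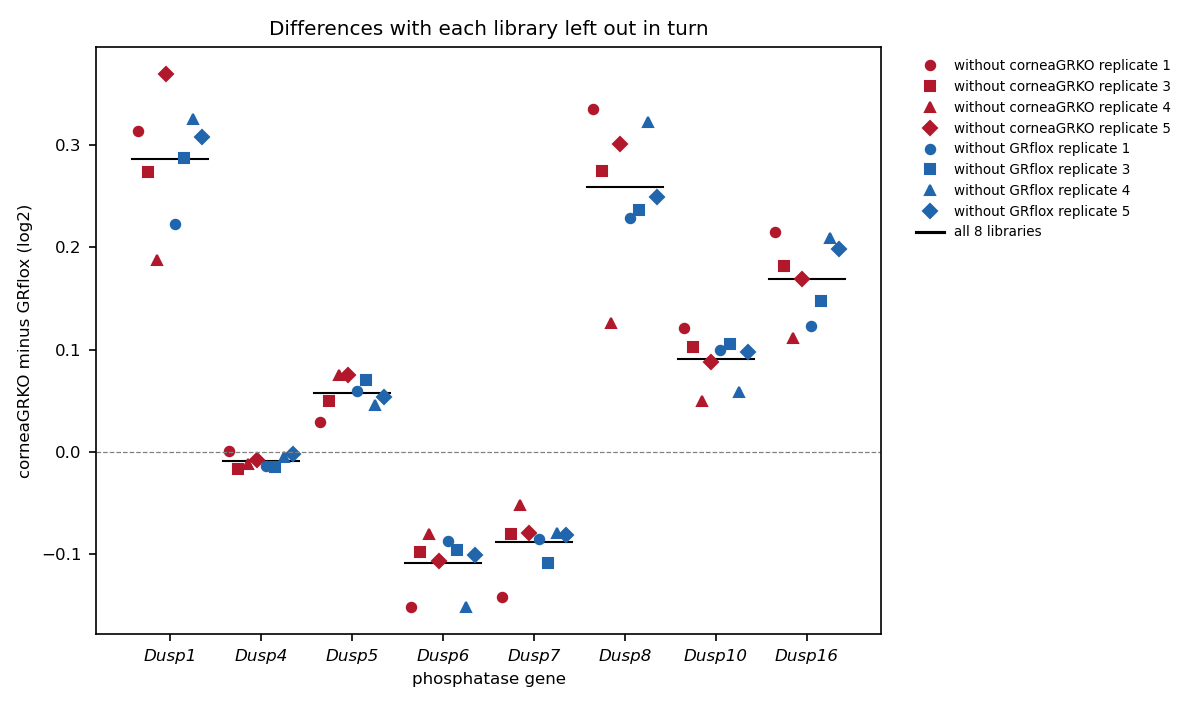
Difference between corneaGRKO and GRflox on the log2 scale for the 8 tested phosphatase genes with each library left out in turn (red for corneaGRKO, blue for GRflox, a marker shape for each replicate number) and with all 8 libraries (black line). Dusp1 ranges from 0.19 to 0.37 and Dusp8 from 0.13 to 0.34, both lowest without corneaGRKO replicate 4.

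The mean of the immediate early genes, which growth factor and stress signals induce together with Dusp1, had a similar order of corneaGRKO libraries. Single genes differed. Within corneaGRKO, Jun, Egr1, Atf3, Myc and Nr4a1 were highest in replicate 4, while Fosl2, Junb and Ier5 were lowest there. The 12 tested genes of this list averaged 0.17, 0.18, 0.24 and 0.01 above GRflox in replicates 1, 3, 4 and 5 of corneaGRKO, where Dusp1 stood 0.20, 0.32, 0.58 and 0.03 above it. In the same-numbered GRflox libraries the list averaged -0.04, 0.03, 0.09 and -0.08, and Dusp1 stood at -0.19, 0.00, 0.12 and 0.07. Both were highest there in replicate 4, but the list was lowest in replicate 5 and Dusp1 in replicate 1. No gene of the list passed (0 of 12, against 1.85% of all entries; at an unadjusted p of 0.05 in limma 4 were higher, against 9.69% of all entries, and 0 lower), and the list's median difference was 0.09. The list's differences ran from -0.22 for Fos (limma adjusted p = 0.329) to 0.63 for Egr1 (0.176). Jun, a subunit of the transcription factor AP-1, had the smallest adjusted p. Its values were 12.06, 12.11, 12.28 and 11.95 in corneaGRKO, against 11.62, 11.65, 12.08 and 11.53 in GRflox libraries, a difference of 0.38 (SE 0.111, limma adjusted p = 0.121). The groups overlapped through GRflox replicate 4 alone.

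The kinases that these phosphatases act on, and the cascade above them, held no gene past the threshold. The counts were 0 of 13 MAP kinases, 0 of 7 MAP kinase kinases, 0 of 17 tested MAP kinase kinase kinases and 0 of 11 MAP kinase-activated kinases. At an unadjusted p of 0.05 in limma the counts were 2 MAP kinases, 0 MAP kinase kinases, 3 MAP kinase kinase kinases and 3 MAP kinase-activated kinases, against 16.5% of all entries tested. The list medians ran from -0.03 to 0.01. Mapk4, an atypical MAP kinase, had a difference of -0.18 (limma adjusted p = 0.158), and Map2k2, an activator of ERK, of -0.13 (0.328). Map3k5, which encodes the stress kinase ASK, had the smallest adjusted p of the upstream kinases, with values of 11.13, 11.15, 10.98 and 11.11 in corneaGRKO, against 11.23, 11.22, 11.29 and 11.30 in GRflox libraries. Its groups did not overlap, and its difference of -0.17 (SE 0.0437) did not pass (limma adjusted p = 0.0857). Rps6ka6, a ribosomal S6 kinase gene, had a difference of 0.17 with groups that did not overlap (limma adjusted p = 0.0784).

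ERK feedback and output genes, a list of 13 with 12 tested, likewise held 0 past the threshold (2 at an unadjusted p of 0.05 in limma, against 16.5% of all entries), with a median of -0.03. The 2 genes were Etv5, which was lower, and Errfi1, which was higher (0.11, limma adjusted p = 0.223). Etv5, an ETS factor induced by ERK signalling as Dusp6 is, had values of 9.14, 9.09, 9.00 and 9.05 in corneaGRKO, against 9.30, 9.24, 9.17 and 9.21 in GRflox libraries. All 4 corneaGRKO libraries were lower, by 0.16 on average (difference -0.16, SE 0.0446, limma adjusted p = 0.111). Of 16 other dual-specificity phosphatases and related genes, 10 were tested and 0 passed (1 at an unadjusted p of 0.05 in limma), and differences ran from -0.08 to 0.07. Dusp18 had the smallest adjusted p (0.07, limma adjusted p = 0.27). Dusp21 was listed at 0 in every library. The 3 tyrosine phosphatases of MAP kinases, Ptpn5, Ptpn7 and Ptprr, all lay under the mean needed for the test. Over these 9 lists, glucocorticoid-induced and immediate early genes included, 92 of 107 genes were tested and 1, Tsc22d3, passed, against 1.85% of all entries, while 19 had an unadjusted p under 0.05, against 16.5% of all entries. Shares this near those of all entries say nothing particular about the 9 lists as a pool, which combines both directions. At an unadjusted p of 0.05 in limma, 4 of 10 glucocorticoid-induced genes were lower (6.86% of all entries) and 0 higher. Of the immediate early genes, 4 of 12 were higher (9.69% of all entries) and 0 lower. Whether a single list differed from all entries was not tested.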

How the data were processed

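Log2 normalized expression values deposited by the authors were used as they stand, for 24918 entries and 8 libraries grouped by their titles. Bowtie2, HTSeq and DESeq2 are named in the submitters' processing notes, and their versions and the transformation are not given in the sources used here. As the build is mm9 in those notes and mm10 in the labels' protocols, coordinates are printed only for RefSeq promoters of GRCm38.p6. Reads were 75 nt pairs, with more than 40000000 per sample per the labels. The depth of each library is unknown, so no counting interval is given. The median SD of GRflox libraries was 0.0144 for means of 2 to 3, against 0.0674 for means of 10 to 12, so values of weak genes appear compressed and their differences may be understated.

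limma 3.58.1 (R 4.3.3; mean-variance trend, group only, two-sided) was run on the 13269 entries with a mean of 5 or more. Each library is its own pool, so the spread behind each p-value is that between pools. Any 2 libraries differed by a median of at least 0.0427, so none was a duplicate. Level per length used exons of protein-coding transcripts of GENCODE vM21 (basic). Summed marker levels are sums of 2 to the power of each value. The script was tested on simulated data. The table held 0 other value columns.

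Members and lists were chosen with earlier results of these data known. Named are the 10 members, Nr3c1, Tsc22d3, Per1, Fkbp5, genes of each list past the threshold or else with the smallest adjusted p, and the 5 genes most like Dusp1. Krt12, Krt15, Kera, Col5a1, Col6a2, Cd3e, the other marker genes named, Errfi1 and the immediate early genes other than Jun were chosen after their values were seen. The 17 listed alternatives were the replicate block, 2 filters, 2 normalizations, a pseudocount of 16, no trend, library weights, each library left out, and 2 left out together.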

Additional observations from a re-analysis of the deposited data

Results flagged for a closer look

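Of 28 sets of 4 libraries examined (14 genes in each group), 1 held a library far from the others. Dusp10 was 7.38 in GRflox replicate 4, while the other 3 GRflox libraries lay between 7.50 and 7.52. The gap to the nearest library was 0.834 of the whole range, past the 95% critical value of Dixon's test for 4 samples. Chance alone gives about 1 such set in 20.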

How the results depend on the processing

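The direction of Dusp1, Dusp5, Dusp6, Dusp7, Dusp8, Dusp10 and Dusp16 was the same under each alternative that tested them, while Dusp4 (-0.0169 to 0.00131 with 1 library left out) turned round with library weights (0.00404), without corneaGRKO replicate 1 (0.00131) and without corneaGRKO replicates 1 and 4 together (0.0015). Same-numbered libraries deviated together for replicates 1 and 4 (correlation of deviations 0.514 and 0.259) but not for 3 and 5 (-0.284 and 0.0611), and 2 of 4 corneaGRKO libraries correlated best with their own number, so the numbers were not taken as pairing. A replicate block brought 663 genes past the threshold (5% of those tested), among them 2 phosphatase genes, Dusp8 (0.26, limma adjusted p = 0.0454) and Dusp16 (0.17, limma adjusted p = 0.0391), and 9 genes of the lists. With library weights, estimated from the same libraries, 1980 genes passed (14.9%), among them Dusp16 (0.20, limma adjusted p = 0.0361), Dusp6 (-0.15, limma adjusted p = 0.029) and 17 genes of the lists. Leaving out 1 library gave 68 genes (without GRflox replicate 5) to 574 (without corneaGRKO replicate 1) against 245 with all libraries, 0 phosphatase genes each time, and 0 to 3 genes of the lists. Per1 and Fkbp5 passed with the block (limma adjusted p = 0.0188 and 0.0275) and with weights (0.0154 and 0.017), and Per1 without corneaGRKO replicate 4 (0.0375). Without a filter Dusp2 and Dusp9 had limma adjusted p of 0.947 and 0.606, and Dusp8 and Dusp4 were not tested at a mean of at least 7. The cause of these changes was not tested.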

Other observations

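The 5 tested genes whose values followed Dusp1 most closely over the 8 libraries were Rgs7bp (Pearson r = 0.975), Zfp30 (0.957), Cmya5 (0.956), Slc6a17 (0.955) and Cysltr1 (0.954). They were the highest of 13269 tested entries, and the 8 libraries share the spread that corneaGRKO replicate 4 adds, so these values describe likeness only. Rgs7bp, which encodes a membrane anchor of regulators of G protein signalling, had a difference of 0.18 (limma adjusted p = 0.191), and Slc6a17, a neuronal amino acid transporter gene, of 0.15 (0.247). Cysltr1, a receptor of leukotrienes, had a difference of 0.10 (limma adjusted p = 0.244), Zfp30 of 0.08 (0.308) and Cmya5 of 0.07 (0.332), so 0 of the 5 passed.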
